A study of Mus musculus with 6 samples.

Results

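The genes described here are 10 core components of Notch signalling: the ligand genes Jag1, Jag2, Dll1 and Dll4, the receptor genes Notch1, Notch2 and Notch3, the transcription factor gene Rbpj, and the target genes Hes1 and Dtx1. They were chosen by symbol, and each matched a single Ensembl row of the 35932 in the deposited count table. RNA sequencing was done on 6 libraries of bone marrow leukemic blasts from mice, all of genotype MLL-AF9+, the fusion of Kmt2a and Mllt3 that drives an acute myeloid leukemia. In the chemotherapy-sensitive group the 3 libraries carry the treatment label vehicle. In the chemotherapy-resistant group the 3 libraries carry the label of combined cytarabine, a nucleoside analog, and doxorubicin, an anthracycline. Resistance and drug exposure cannot be told apart in this design. Strain, age, dose, time of harvest, the way the fusion was introduced and whether replicates came from separate animals are not given in the labels, so each p-value reflects only how far these libraries spread, and that spread may be technical.

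Notch signalling works between touching cells. A Jagged or Delta-like ligand on the sending cell is pulled inward by endocytosis, which opens the bound receptor to cleavage by ADAM10 and then by gamma-secretase. The freed intracellular domain enters the nucleus, joins RBPJ and a Mastermind-like coactivator, and switches on genes of the HES and HEY repressor families, Dtx1 and Nrarp; without it, RBPJ sits with corepressors. Among blood cells, Notch1 is known for T cell commitment and Notch2 for marginal zone B cells and some dendritic cells.

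In resistant blasts the ligand Jag1 was 7.72-fold higher while its paralog Jag2 was 1.99-fold lower. The receptors Notch1 and Notch2 fell together, 1.6-fold and 1.61-fold, and Rbpj did not pass the test. The targets Hes1 and Dtx1 and the ligands Dll1 and Dll4 had at most 3 counts in any library of either group, and Notch3 at most 8. The 10 genes are therefore 1 that rose, 3 that fell, 1 that did not pass and 5 with too few counts for the test. Among all 13414 genes tested, 39.2% passed (18.5% higher and 20.8% lower in resistant blasts; edgeR quasi-likelihood test, Benjamini-Hochberg adjusted p of 0.05). A call by itself does not set a gene apart here, and the sizes are given for that reason. The median size of the log2 fold change over all tested genes was 0.218.

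The promoters of the genes that changed, and of Rbpj, are printed to show the sequence at their starts. They are RefSeq sequences of build GRCm38.p6, 250 bases before to 50 bases after a gene's start, 5′ to 3′ on the gene's strand. Capitals mark matches on either strand to 5 short motifs: the RBPJ core TGGGAA, the GC box GGGCGG, the CCAAT box, the TATA box TATAAA and the GATA site AGATAA. Neighbouring GC boxes can overlap.
Jag1 (chr2:137116471-137116770, minus strand): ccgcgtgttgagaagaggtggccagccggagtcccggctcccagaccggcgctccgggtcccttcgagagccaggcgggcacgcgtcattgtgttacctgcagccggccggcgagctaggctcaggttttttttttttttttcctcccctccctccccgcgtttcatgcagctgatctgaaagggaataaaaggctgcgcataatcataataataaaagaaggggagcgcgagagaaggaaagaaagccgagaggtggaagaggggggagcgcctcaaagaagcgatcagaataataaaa
Jag2 (chr12:112929446-112929745, minus strand): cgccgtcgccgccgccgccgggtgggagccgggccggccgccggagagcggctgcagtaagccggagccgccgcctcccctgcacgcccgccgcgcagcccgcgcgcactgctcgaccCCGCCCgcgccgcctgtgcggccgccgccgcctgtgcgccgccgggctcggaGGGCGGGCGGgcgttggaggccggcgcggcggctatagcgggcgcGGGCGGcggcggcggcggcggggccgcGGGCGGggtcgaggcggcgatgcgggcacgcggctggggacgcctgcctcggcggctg
Notch1 (chr2:26503773-26504072, minus strand): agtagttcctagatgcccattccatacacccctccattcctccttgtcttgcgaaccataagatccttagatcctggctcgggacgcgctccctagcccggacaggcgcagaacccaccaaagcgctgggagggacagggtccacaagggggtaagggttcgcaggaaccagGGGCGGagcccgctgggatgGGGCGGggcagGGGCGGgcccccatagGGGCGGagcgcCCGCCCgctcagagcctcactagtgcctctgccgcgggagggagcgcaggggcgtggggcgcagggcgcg
Notch2 (chr3:98013288-98013587, plus strand): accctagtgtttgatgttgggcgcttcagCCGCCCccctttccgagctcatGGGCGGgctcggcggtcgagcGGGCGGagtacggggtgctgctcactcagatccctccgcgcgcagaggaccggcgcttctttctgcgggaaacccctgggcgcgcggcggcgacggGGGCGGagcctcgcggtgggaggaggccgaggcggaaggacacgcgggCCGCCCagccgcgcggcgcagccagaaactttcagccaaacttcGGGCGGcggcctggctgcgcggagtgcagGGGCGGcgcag
Rbpj (chr5:53590096-53590395, plus strand): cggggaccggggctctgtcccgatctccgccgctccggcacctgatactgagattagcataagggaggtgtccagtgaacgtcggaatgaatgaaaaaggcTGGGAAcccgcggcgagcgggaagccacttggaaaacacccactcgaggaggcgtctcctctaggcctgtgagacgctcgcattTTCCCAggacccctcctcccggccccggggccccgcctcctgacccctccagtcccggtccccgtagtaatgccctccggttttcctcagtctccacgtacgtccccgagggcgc

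The Jag1 window held none of the 5 motifs, a GC content of 55.7% and 22 CG dinucleotides. The Jag2 window held 5 GC boxes, a GC content of 86% and 63 CG dinucleotides. The Notch1 window held 5 GC boxes and the Notch2 window 7, with GC contents of 68.3% and 73%. The Rbpj window printed held 2 copies of the RBPJ core, whose first bases lie 149 and 65 bases before the start. A second, overlapping Rbpj window held 1 of them and 1 GC box. Among the scarce genes, whose windows are not printed, Notch3 had 4 GC boxes, Dtx1 3, Dll4 2 and Dll1 0. Of 32851 mouse promoter windows of this length, 25.6% held the RBPJ core, 35.7% a GC box, 37.4% the CCAAT box, 13.6% the TATA box and 11.2% the GATA site. Their median GC content was 52.7% and their median number of CG dinucleotides 7. These matches describe letters in the windows only; no binding was measured.

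Library totals ranged from 22206341 to 31856009 counts. Values below are CPM, counts scaled to a common library size with TMM factors, and 3 counts, taken as the floor, were worth 0.0945 to 0.137 CPM. The blast label was checked against markers: all 12 genes of a myeloid blast list (among them Kit, Cd34, Mpo and Hoxa9) were above the low-count filter. Their summed level was 5830 to 6390 CPM in sensitive and 5140 to 6060 CPM in resistant libraries. Single genes of the list differed between groups: 4 were higher, 4 were lower and 4 did not pass. The largest change was that of Cebpa, from 95.8 ± 6.1 to 25.3 ± 3.55 CPM (-1.93 ± 0.10, edgeR adjusted p = 3.15e-07). Red cell transcripts moved with the groups: 9 erythroid genes summed to 46.7 to 81.7 CPM in sensitive and 1.1 to 2.96 CPM in resistant libraries, and 6 of the 7 tested fell. In bulk RNA, fewer cells of a type and less RNA per cell cannot be told apart. The part of other cells in the Notch values was not tested, and marker levels are given beside the results they accompany.

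Jag1, a Jagged ligand that binds Notch receptors on neighbouring cells, had 12, 14 and 18 counts in the sensitive libraries, while the resistant ones held 128, 71 and 120. Scaled, these were 0.413, 0.549 and 0.577 CPM against 4.03, 3.23 and 4.68 CPM. Every resistant library lay above every sensitive library, and the lowest resistant value was several times the highest sensitive one. The log2 fold change was 2.95 ± 0.25 (SE, 95% interval 2.4 to 3.5; edgeR adjusted p = 1.1e-05). Only 0.977% of tested genes had a larger change in either direction. The low level in sensitive libraries was above the 0.362 CPM that the low-count filter asks for.

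Jag2, the second Jagged ligand, had 71, 59 and 77 counts in the sensitive libraries, while the resistant ones held 31, 36 and 27. These were 2.44, 2.31 and 2.47 CPM against 0.977, 1.64 and 1.05 CPM. The groups did not overlap, and the resistant library 2 was the nearest to the sensitive range. The log2 fold change of Jag2 was -0.995 ± 0.24 (95% interval -1.54 to -0.45; edgeR adjusted p = 0.00877). For a comparison between the ligand genes, CPM was divided by the exonic length of each gene. On that scale Jag1 went from 0.0881 ± 0.0151 to 0.683 ± 0.125 CPM per kb and Jag2 from 0.346 ± 0.012 to 0.176 ± 0.052 CPM per kb (SD, n = 3 per group).

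The transcript pool of the 4 ligand genes thus changed in both its size and its make-up. Jag1 held 16.8%, 22.1% and 21.8% of the summed ligand CPM per kb in the sensitive libraries and 82.3%, 69.2% and 84.2% in the resistant ones. Jag2 held most of the pool in each sensitive library and Jag1 most of it in each resistant library. The sum of the 4 ligand genes was 0.434 ± 0.0173 CPM per kb in sensitive blasts, against 0.866 ± 0.0795 in resistant ones. The Delta-like ligands of this sum, Dll1 and Dll4, added almost nothing. Dll1 had 0 counts in all 6 libraries. Over the summed depths this allows up to 0.035 CPM for the sensitive group and 0.0378 for the resistant group (3 counts, counting error only). Dll4 had 0 counts in the sensitive libraries and 1, 1 and 0 in the resistant ones, below the floor of 3 counts in each group.

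**Figure D1:**
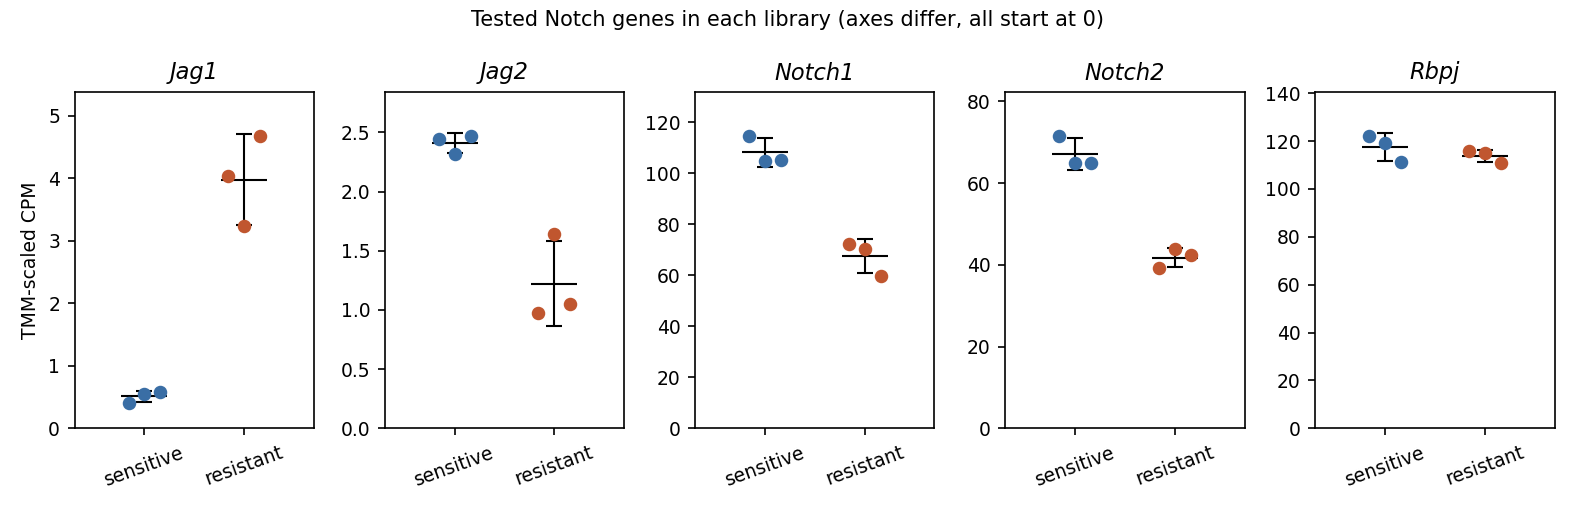
TMM-scaled CPM (linear axes from 0, a separate axis per gene) of the 5 tested Notch genes in the 3 sensitive (blue) and 3 resistant (red) libraries; points are libraries, black bars the mean and SD. Jag1 lies higher and Jag2, Notch1 and Notch2 lie lower in every resistant library, while the Rbpj groups overlap.

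**Figure D2:**
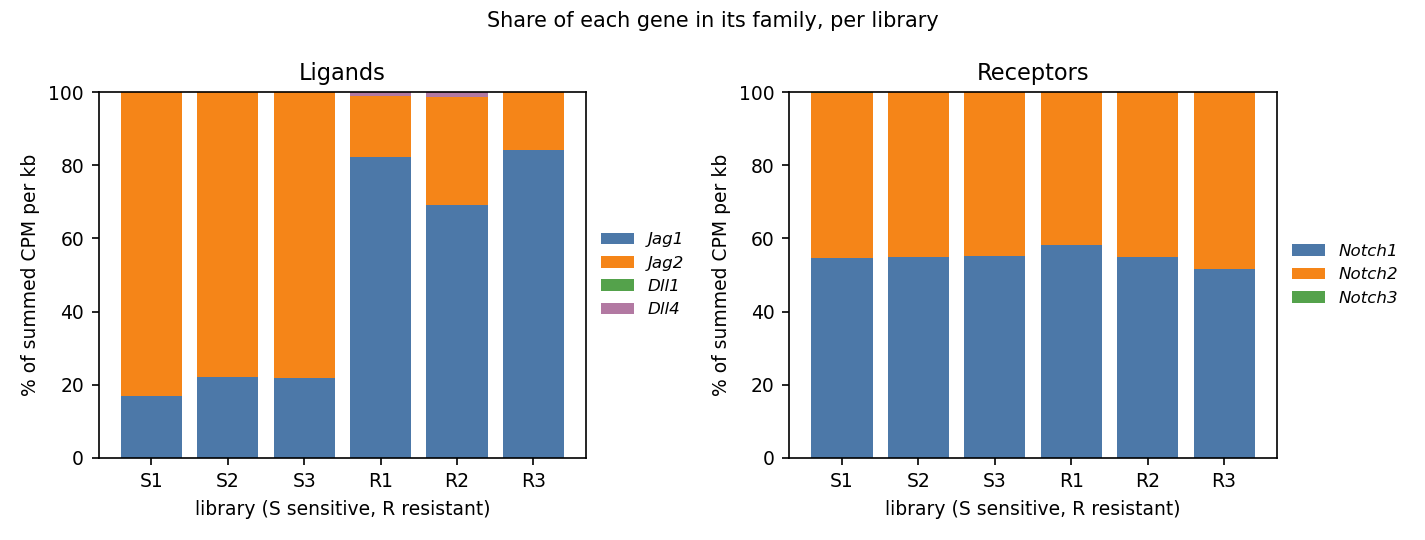
Stacked bars give the percentage of the summed CPM per kb held by each gene in each library, S1 to S3 sensitive and R1 to R3 resistant. The left panel holds the ligand genes Jag1, Jag2, Dll1 and Dll4, and the right panel the receptor genes Notch1, Notch2 and Notch3. Jag2 holds most of the ligand bar in the sensitive libraries and Jag1 in the resistant ones, while Notch1 and Notch2 keep similar shares.

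Endothelial and stromal cells of the marrow are known sources of Jagged ligands, so their markers are given beside the Jag1 result. The 9 endothelial markers summed to 15.2 to 16.3 CPM in sensitive and 8.45 to 9.79 CPM in resistant libraries. Emcn and Cldn5 were at 0 in all 6 libraries, Kdr had 1 count in each group and Cdh5 had 6 and 3 counts. Tie1 had 11 counts in sensitive and 23 in resistant libraries, Tek 0 and 3, and Esam 4 and 6. Both tested members of the list, Flt1 and Egfl7, were lower in resistant blasts. The 10 stromal and osteoblast markers summed to 164 to 177 CPM in sensitive and 155 to 167 CPM in resistant libraries. Runx2 (122 ± 2.23 and 127 ± 4.42 CPM) and Pdgfrb (46.5 ± 5.62 and 34.1 ± 3.13 CPM) made up nearly all of that sum. The other 8 each averaged under 0.5 CPM in both groups and went both ways. Kitl had 7 counts in sensitive and 24 in resistant libraries, Bglap 0 and 6, Col1a2 3 and 7, and Pdgfra 4 and 6. Cxcl12 had 32 and 6, Lepr 12 and 10, Col1a1 38 and 32, and Col3a1 2 and 1. Of the 3 tested, Pdgfrb was lower (-0.45 ± 0.10, edgeR adjusted p = 0.00513) and Runx2 and Col1a1 did not pass. The 7 megakaryocyte markers summed to 13.8 to 15.2 CPM and 12.7 to 14.5 CPM, but 2 of the 4 tested changed in opposite directions. Gp1ba, a platelet receptor gene, was higher, at 2.01 ± 0.49 against 4.72 ± 1.42 CPM (1.23 ± 0.25, edgeR adjusted p = 0.00352). Itga2b, the platelet integrin gene, was lower, at 8.29 ± 0.60 against 5.1 ± 0.85 CPM (-0.70 ± 0.15, edgeR adjusted p = 0.00376).

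Markers of other myeloid lineages changed in both directions. The 8 macrophage markers summed to 353 to 381 CPM in sensitive and 383 to 473 CPM in resistant libraries. Of the 6 tested, 1 was higher, 2 were lower and 3 did not pass. The adhesion gene Vcam1 was higher (161 ± 30.9 and 240 ± 26.5 CPM), while Csf1r, the receptor gene for macrophage colony-stimulating factor (-0.94 ± 0.13), and Cd68 (-0.60 ± 0.09) were lower. A list of 10 eosinophil, basophil and mast cell genes, chosen after earlier results were known, summed to 135 to 174 CPM in sensitive and 389 to 541 CPM in resistant libraries. That sum was carried by the eosinophil granule genes Prg2 and Prg3, while the mast cell and basophil genes Cpa3, Mcpt8 and Ms4a2 fell. Of the 7 tested, 2 were higher, 3 were lower and 2 did not pass. The eosinophil genes Epx (0.06 ± 0.37, edgeR adjusted p = 0.922) and Il5ra (0.63 ± 0.29, edgeR adjusted p = 0.111) did not pass, and Ccr3 had 5 and 3 counts. The part of the cell types of these lists, endothelial and stromal cells included, in the Jag1 values was not tested.

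Notch1, the receptor known for T lineage commitment and for activating mutations in T cell leukemia, was at 114.6, 104.7 and 105.2 CPM in the sensitive libraries. It was at 72.4, 70.3 and 59.8 CPM in the resistant libraries, all of them below the sensitive range. Notch1 fell by 0.68 ± 0.08 on the log2 scale (95% interval -0.85 to -0.51; edgeR adjusted p = 8.09e-05). Its depth, 9281 counts in sensitive and 5374 in resistant libraries, gives it a narrower interval than the ligands.

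Notch2, a receptor of similar architecture, was at 71.6, 64.9 and 65 CPM in the sensitive libraries and fell to 39.1, 43.9 and 42.4 CPM in the resistant ones. The groups did not overlap. Notch2 fell by 0.69 ± 0.07 (95% interval -0.84 to -0.53; edgeR adjusted p = 4.4e-05), nearly the same size as Notch1. Per kb of exon, the receptors stood at 7.6 ± 0.39 (Notch1) and 6.23 ± 0.356 (Notch2) CPM in sensitive and at 4.74 ± 0.474 and 3.88 ± 0.224 in resistant ones (SD, n = 3 per group). Notch1 thus held 54.9% ± 0.193 of the receptor sum in sensitive and 54.9% ± 3.31 in resistant blasts, with 58.3%, 54.8% and 51.7% in the resistant libraries 1 to 3. The sum over the 3 receptor genes went from 13.8 ± 0.758 to 8.62 ± 0.447 CPM per kb, in the libraries where the ligand sum was higher.

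Notch3, a receptor best known from vascular smooth muscle, had 8, 3 and 2 counts in sensitive and 2, 0 and 0 in resistant libraries. The counts of resistant library 1 and sensitive library 3 were equal, and sensitive library 1 held most of the total. The ratio of resistant to sensitive was 0.166, with a 95% exact counting interval of 0.0182 to 0.734 that covers counting error only and not the spread between libraries. Notch4, the remaining mammalian receptor and one of the other pathway genes, was at 0.723, 0.706 and 1.32 CPM in the sensitive libraries and at 0.347, 0.364 and 0.195 in the resistant ones. It fell by 1.60 ± 0.40 (edgeR adjusted p = 0.00925); without sensitive library 3 its adjusted p was 0.0518.

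Rbpj, the DNA-binding factor that all Notch receptors share, was at 122.2, 119.3 and 111.2 CPM in the sensitive libraries and at 115.7, 115 and 110.9 in the resistant ones. The groups overlapped. Its log2 fold change was -0.05 ± 0.06 (95% interval -0.17 to 0.08, edgeR adjusted p = 0.548). That interval spans both a small fall and a small rise. Per kb, the order of the tested genes from the highest was Rbpj, Notch1, Notch2, Jag2 and Jag1 in sensitive blasts. In resistant blasts it was Rbpj, Notch1, Notch2, Jag1 and Jag2, so the ligands changed places. The neighbours in this order did not overlap between libraries in sensitive blasts, and in resistant blasts Notch1 and Notch2 lay closest, at 4.2 to 5.09 and 3.63 to 4.07 CPM per kb.

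The targets stayed at the edge of detection on both sides. Hes1, the repressor gene most often read as a Notch response, had 2, 0 and 3 counts in sensitive and 1, 1 and 0 in resistant libraries. The ratio of its summed counts, resistant over sensitive, was 0.432 with a 95% counting interval of 0.0412 to 2.64. Dtx1, a ubiquitin ligase gene induced by Notch in lymphocytes, had 0, 0 and 1 counts in sensitive and 3, 0 and 2 in resistant libraries. Its ratio was 5.4 with an interval of 0.605 to 256. Both intervals include 1, and a difference in either gene was not detectable at this depth.

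**Figure D3:**
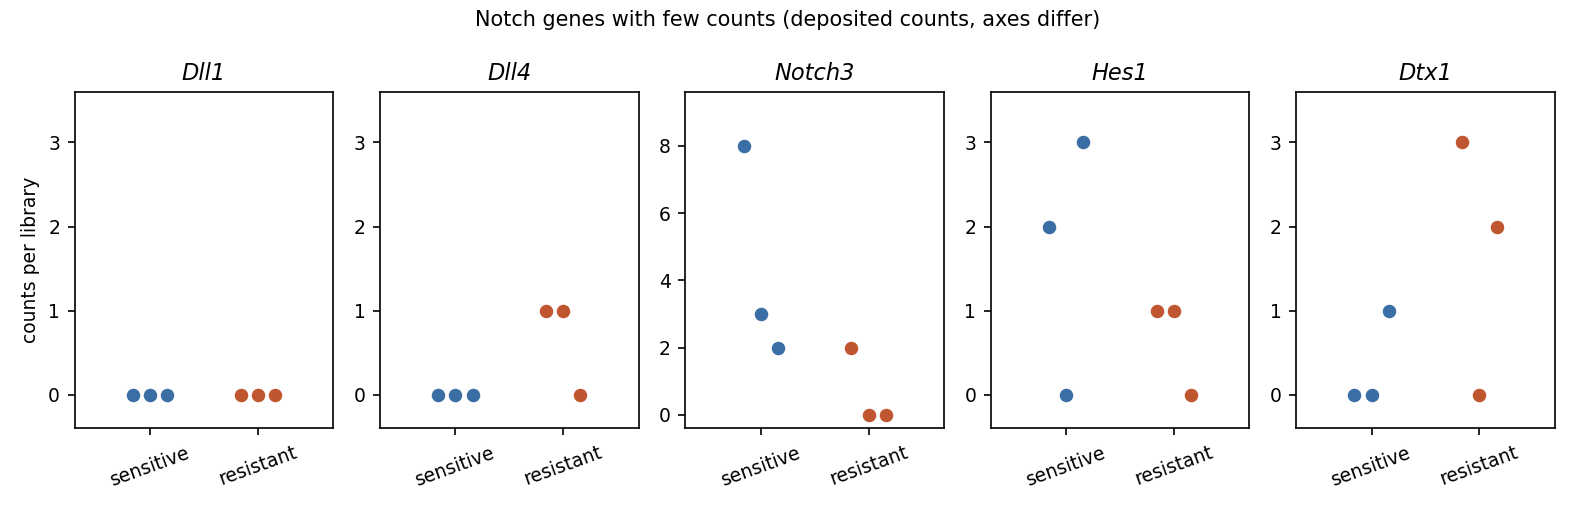
Deposited counts per library (linear axes, a separate one per gene) of the 5 Notch genes with too few counts for the test, sensitive in blue and resistant in red. Dll1 is at 0 throughout, and only Notch3 in sensitive library 1 exceeds 3 counts.

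The rest of the pathway was read from 9 lists of 82 further genes. Of 74 tested, 10 were higher, 16 lower and 48 did not pass, so 35.1% passed against 39.2% of all tested genes. The groups did not overlap in 33 of the 74 (44.6%), against 52.4% of all tested genes, and the median log2 fold change was -0.00251 beside -0.0052 over all genes. The lists thus held no larger share of changed genes than all tested genes did.

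Among ligand endocytosis genes, 2 of 6 tested rose, 1 fell and 3 did not pass. Mib1, the ubiquitin ligase that starts ligand uptake, rose from 111 ± 1.63 to 145 ± 9.76 CPM (0.38 ± 0.06, edgeR adjusted p = 0.000702). Its relative Mib2 fell from 15.9 ± 0.46 to 12.1 ± 0.633 CPM. Epn2, an epsin adaptor of ligand endocytosis, rose from 1.14 ± 0.13 to 2.76 ± 0.323 CPM (1.27 ± 0.22, edgeR adjusted p = 0.00115).

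Of the 6 genes that mature the receptor, all tested, 1 rose, 3 fell and 2 did not pass. Furin, the protease that makes the first cut of the receptor, fell from 56.2 ± 2.43 to 38.4 ± 0.614 CPM (-0.55 ± 0.06). The Fringe glycosyltransferases tune which ligand family a receptor answers to: Lfng fell from 12.1 ± 0.712 to 8.32 ± 1.07 CPM and Rfng from 18.6 ± 1.29 to 12.7 ± 2.49 CPM, while Mfng did not pass (-0.12 ± 0.09, edgeR adjusted p = 0.345). Poglut1, an O-glucosyltransferase of the receptor's EGF repeats, rose from 39.3 ± 3.38 to 50.4 ± 4.37 CPM. For receptor cleavage, 1 of 9 genes passed: Adam10, the ligand-dependent sheddase, was at 261 ± 9.55 and 300.1 ± 25.3 CPM (0.20 ± 0.07, edgeR adjusted p = 0.0333). That call was lost under 5 of 15 alternatives, among them the fits without sensitive library 2 (adjusted p = 0.122), sensitive library 3 (0.115), resistant library 1 (0.0914) or resistant library 3 (0.0545). Among gamma-secretase subunit genes, Psen2, Ncstn, Aph1a, Aph1b, Aph1c and Psenen did not pass.

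Nuclear partners of RBPJ moved gene by gene. Of 8 coactivators, 0 were higher and 3 lower. Maml3, a Mastermind-like coactivator, fell 5.79-fold, from 1.62, 1.88 and 1.99 CPM in sensitive to 0.378, 0.228 and 0.312 CPM in resistant libraries (edgeR adjusted p = 9.06e-05). Its paralog Maml1 fell from 68.5 ± 3.87 to 47 ± 0.96 CPM, and Maml2 did not pass (0.04 ± 0.18, edgeR adjusted p = 0.876). The acetyltransferase gene Kat2a passed narrowly (-0.17 ± 0.06, edgeR adjusted p = 0.0396) and lost its call when any of the libraries other than resistant library 2 was left out or without a low-count filter (0.0583 to 0.139).

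Of 16 corepressor genes, 2 were higher, 4 lower and 10 did not pass. The Groucho family gene Tle1 rose from 14.9 ± 0.661 to 21.9 ± 1.72 CPM. Its relative Tle3 fell from 113 ± 2.8 to 61.2 ± 6.37 CPM (-0.89 ± 0.07, edgeR adjusted p = 1.11e-05). L3mbtl3, an RBPJ-binding corepressor, fell from 22.2 ± 3.12 to 12 ± 2.56 CPM. Among 13 negative regulators and turnover genes, 2 were higher, 1 lower and 10 did not pass. Nedd4, a ubiquitin ligase of several surface receptors, rose from 383 ± 7.95 to 512 ± 29.3 CPM (0.42 ± 0.05). Calls of Cbl (0.34 ± 0.10) and Dtx4 (-0.24 ± 0.07) were each lost when certain libraries were left out. For Cbl these were sensitive library 2, sensitive library 3 or resistant library 1 (edgeR adjusted p = 0.0941, 0.0916 and 0.0844), and for Dtx4 sensitive library 1, sensitive library 2 or resistant library 1 (0.0693, 0.112 and 0.0684).

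**Figure D4:**
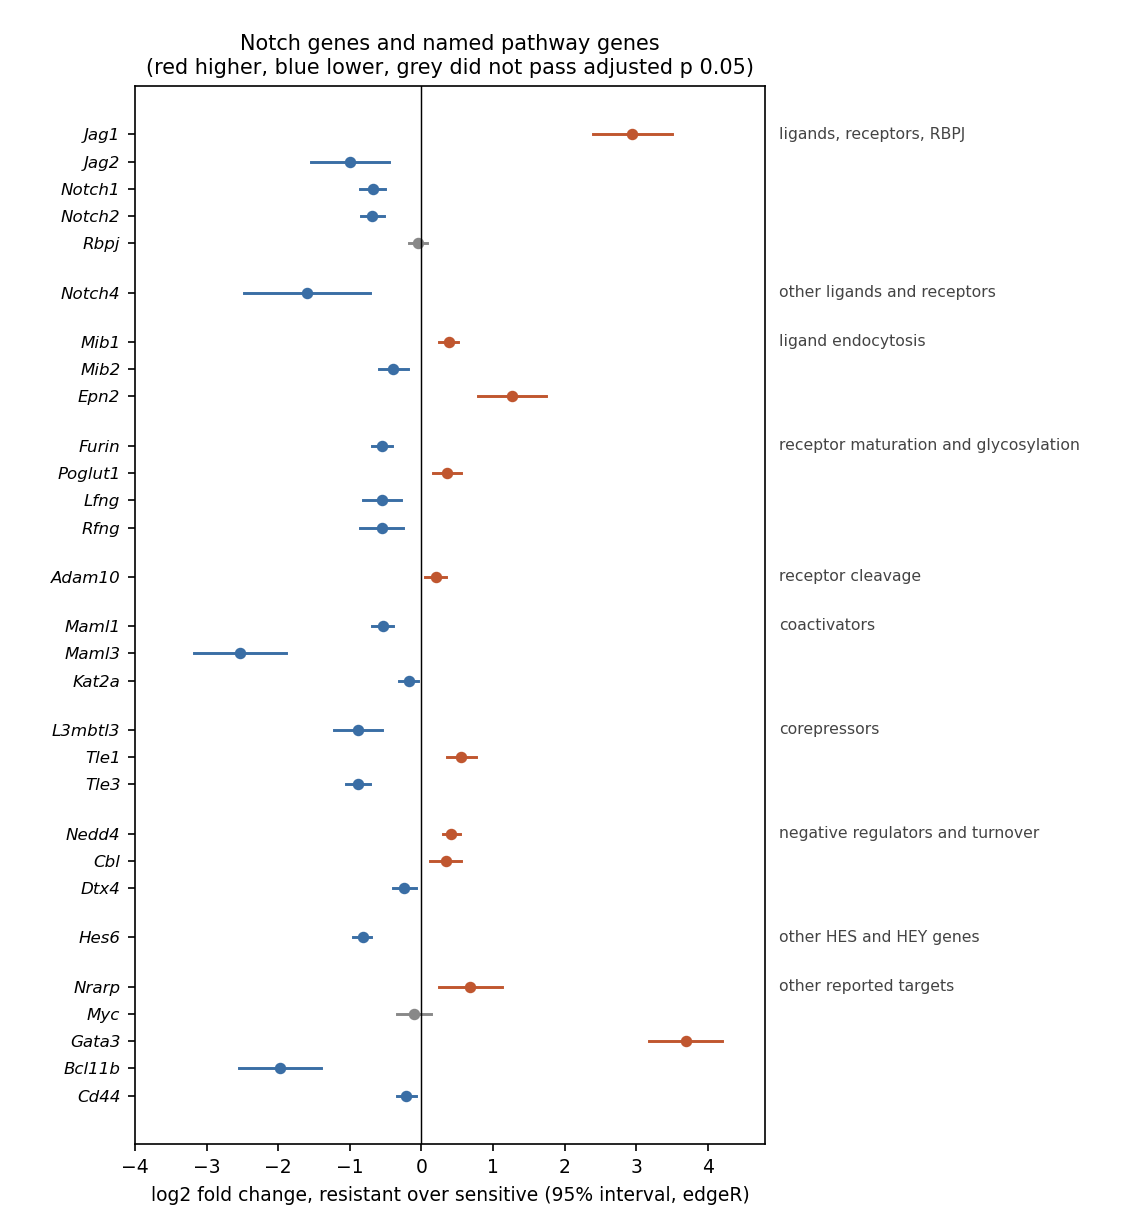
Points are log2 fold changes, resistant over sensitive, with 95% intervals, for the tested Notch genes and the named pathway genes grouped by role; red passed as higher, blue as lower, grey did not pass. Gata3 and Jag1 lie farthest to the right and Maml3 farthest to the left, and most other points lie within 1 of 0.

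The other HES and HEY genes were mostly as scarce as Hes1: 6 of 8 did not reach the test. Hes5 had 4, 5 and 2 counts in sensitive and 2, 0 and 1 in resistant libraries, and Hey1 had 1, 4 and 0 against 3, 0 and 0. Hes6 was well above the filter, at 160 ± 1.17 CPM in sensitive blasts against 90.3 ± 5.38 in resistant ones (-0.82 ± 0.06, edgeR adjusted p = 3.13e-06). Hes6 is a family member that antagonises HES1 and is not regarded as a direct Notch response gene.

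Genes reported as Notch targets in T cells or other settings split, with 2 of 10 tested higher, 2 lower and 6 not passing. Nrarp, a feedback inhibitor that binds the Notch intracellular domain, was at 2.24, 2 and 3.05 CPM in the sensitive libraries and at 3.62, 4.37 and 3.78 in the resistant ones. Its groups did not overlap, and it rose by 0.68 ± 0.20 (edgeR adjusted p = 0.0197). That call was lost without sensitive library 1, sensitive library 2 or resistant library 2 (adjusted p = 0.0669, 0.0838 and 0.0565). Myc, a Notch1 target in T cell leukemia, was at 148 ± 2.81 and 138 ± 25.9 CPM (-0.10 ± 0.11, edgeR adjusted p = 0.469). It passed as lower without resistant library 2 (-0.25, adjusted p = 0.0219), and its sign turned without resistant library 3 (0.02, adjusted p = 0.899). Cd44, an adhesion receptor gene, was at 320 ± 17.6 and 277 ± 13.7 CPM (edgeR adjusted p = 0.0192), a call lost without sensitive library 1, sensitive library 2 or resistant library 1 (0.0723, 0.0663 and 0.0561).

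Of the T lineage genes of that list, Gata3 was higher and Bcl11b lower, Tcf7 (0.26 ± 0.27) and Il2ra (-0.35 ± 0.26) did not pass, and Ptcra was not tested. Gata3, a transcription factor gene of early T cells, was at 0.55, 1.06 and 1.32 CPM in the sensitive libraries and at 13.2, 13.6 and 11.2 in the resistant ones (3.69 ± 0.23, edgeR adjusted p = 1.34e-06). Bcl11b, which fixes T cell commitment, was at 17.9, 19 and 16.8 CPM in the sensitive libraries and at 4.25, 7.05 and 2.5 in the resistant ones (-1.97 ± 0.26, edgeR adjusted p = 0.000218). Neither gene's groups overlapped. The 10 T cell markers summed to 5.81 to 8.63 CPM in sensitive and 3.78 to 5.77 CPM in resistant libraries. Most of that sum was Cd8a (2.99 ± 0.34 and 1.89 ± 0.514 CPM), Lck (2.37 ± 0.225 and 2.08 ± 0.291 CPM) and Cd247 (1.03 ± 0.656 and 0.645 ± 0.561 CPM). Of these 3, the only ones tested, Cd8a was lower (-0.66 ± 0.23, edgeR adjusted p = 0.0406) and Lck and Cd247 did not pass. Among the untested markers, Cd3d had 29 counts in sensitive and 21 in resistant libraries, Cd4 28 and 10, and Zap70 5 and 3. Cd8b1 had 2 and 0, Trac 1 and 0, Cd3g 0 and 1, and Cd3e 1 count in each group. The pre-T receptor gene Ptcra, which is not one of the 10 markers, had 0 and 2. The 9 B cell markers summed to 169 to 201 CPM and 63.6 to 64.8 CPM. That sum was carried by Ighm (140 ± 15.4 and 24.6 ± 1.55 CPM) and Cd79b (38.9 ± 1.52 and 38.3 ± 1.61 CPM). Of the 3 tested, Ighm alone was lower (-2.51 ± 0.09, edgeR adjusted p = 4.79e-08), and Cd79a and Cd79b did not pass. Dendritic markers summed to 143 to 173 CPM and 91.7 to 108 CPM. Of the 5 tested, Flt3 and Itgax were lower, Zbtb46 was higher and 2 did not pass. NK markers summed to 47.5 to 64.3 CPM and 69.7 to 96 CPM, nearly all of it Nkg7, which was higher (0.64 ± 0.13, edgeR adjusted p = 0.00357). Prf1, the perforin gene and the other NK marker tested, was lower (-2.38 ± 0.51, edgeR adjusted p = 0.00393). The part of these cells in Gata3, Bcl11b or Notch2 was not tested.

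Jag1 had the smallest adjusted p of the 5 tested Notch genes. Log2 CPM profiles over the 6 libraries were compared with that of Jag1 by Euclidean distance after centring each gene. Unnamed gene models, antisense, pseudogene, microRNA, histone and antigen receptor genes and the Notch genes described here were left out by symbol. Of the genes kept, Ptk7 (distance 0.279), Dab2 (0.512) and Ephx1 (0.528) lay nearest. Ptk7, a pseudokinase receptor gene, went from 5.41 ± 1.07 to 34.4 ± 3.05 CPM. Dab2, an endocytic adaptor gene, went from 0.584 ± 0.0885 to 3.53 ± 1.01 CPM, and Ephx1, an epoxide hydrolase gene, from 0.184 ± 0.0639 to 1.4 ± 0.119 CPM. The likeness describes 6 libraries in 2 groups and was not tested.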

How the data were processed

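Column-purified total RNA went into TruSeq libraries, per the labels' protocols. The authors deposited whole-number counts per Ensembl gene. TopHat2, RSEM and build mm9 are named, without roles or versions, per the submitters' processing notes. Whether the counts are direct or rounded estimates, the annotation release, strand setting and treatment of shared reads were not given in the sources used here. GENCODE M21, of a later build, served for symbols (31636 IDs matched), chromosomes and exon lengths. It holds 11 annotated genes that overlap the 10 Notch genes, 5 of them antisense with shared exons. Of the 11, 0 have rows in the count table. Since the strand setting was not given, whether antisense reads entered the Notch rows is not known. Promoters were matched by symbol in RefSeq (9 of 10 genes). All 6 count columns matched a sample by title, and 0 were left unused.

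Counts were filtered with filterByExpr (minimum count 10), TMM-scaled and tested with edgeR 4.0.16 (R 4.3.3) quasi-likelihood on the group. Adjustment was Benjamini-Hochberg over 13414 genes, with calls at 0.05. Groups are given as mean ± SD, n = 3; log2 fold changes as ± SE, the fold change divided by the root of the F statistic. Count ratios have exact conditional intervals (scipy 1.17.1). The script was tested on simulated data. Pairs of libraries within a group gave chi-square values of at least 3.92 per degree of freedom, so none was counted as a copy.

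The members and gene lists were chosen with earlier results of these data known. Named pathway genes are those that passed, up to 4 per list by adjusted p, plus Notch4, Hes5, Hey1, Nrarp and Myc; other genes named beside them were chosen after their values were seen. Some genes that the rule or lists hold are not reported here. Alternatives were RLE, upper quartile or no scaling, other filters, DESeq2 1.42.0, limma-voom (limma 3.58.1), the replicate number as a block, leaving out erythroid genes and leaving out each library.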

Additional observations from a re-analysis of the deposited data

How the results depend on the processing

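The 5 tested Notch genes kept their direction and side of the threshold in all 75 fits (15 alternatives each): Jag1 between 2.81 and 3.08, Jag2 between -1.24 and -0.85, Notch1 between -0.73 and -0.59, Notch2 between -0.72 and -0.64 and Rbpj between -0.09 and -0.02 on the log2 scale. Of 359 such results for 24 named pathway genes, 333 kept both. Myc turned to 0.017 without resistant library 3 and passed as lower, at -0.25, without resistant library 2. Notch4 has no value under the filter of 1 CPM in 3 libraries, since it did not pass it. Leaving out single libraries gave 1641 to 2521 higher and 2015 to 2711 lower genes in all, the lowest count of higher genes being that without sensitive library 2, and 8 to 11 higher and 12 to 16 lower pathway genes; the cause was not tested. Without a low-count filter, 4 of the 5 scarce genes could be fitted, and their adjusted p was 0.416 (Dll4), 0.122 (Notch3), 0.619 (Hes1) and 0.408 (Dtx1).

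Replicate numbers gave no sign of pairing. The deviations of same-numbered libraries correlated at -0.086 to 0.037, and those of differently numbered libraries at -0.063 to 0.069. A weak pairing, or one limited to few genes, could be missed by this check. With the replicate number as a block, 2497 genes were higher and 2824 lower, and no Notch gene changed its call; the log2 fold changes were 2.95 for Jag1, -1.01 for Jag2, -0.68 for Notch1, -0.69 for Notch2 and -0.05 for Rbpj.

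With the longest transcript as length, which changes only the divisor, levels per kb in sensitive and resistant blasts were 0.472 and 0.239 for Jag2, 11.4 and 7.11 for Notch1 and 21.4 and 20.8 for Rbpj. The shares were then 64% and 64% for Notch1 and 35.9% and 36% for Notch2 of the receptor sum, and in sensitive blasts 16.2% for Jag1 and 83.8% for Jag2 of the ligand sum. Library totals limit the scarce genes: Dll1, Dll4, Hes1 and Dtx1 sit at or near the floor of 3 counts.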

Other observations

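The expressed genes beside each Notch gene on its chromosome were read as well, a choice made after the Notch values were seen. The 2 nearest tested genes on either side of Jag1, namely Mkks, Slx4ip, Tasp1 and Esf1, did not pass (log2 fold changes -0.12, -0.27, 0.25 and 0.18), beside 2.95 for Jag1. Over all tested genes 39.2% were called, 18.5% as higher and 20.8% as lower, and with 4 neighbours a gene the counts below are too few to be read against those shares. Beside Jag2, 3 of 4 were lower: Cdca4 (-0.29 ± 0.07), Gpr132 (-0.29 ± 0.09) and Nudt14 (-0.31 ± 0.08), with Brf1 at -0.15 ± 0.06 not passing. Beside Notch1, 3 of 4 were lower: Inpp5e (-0.30 ± 0.08), Egfl7 (-0.45 ± 0.14) and Agpat2 (-0.20 ± 0.07), with Sec16a at 0.06 ± 0.07 not passing. Beside Notch2, Phgdh, a serine synthesis gene, was higher (0.42 ± 0.12) and the other 3 did not pass. Beside Rbpj, 3 of 4 were higher, the largest Stim2 (0.44 ± 0.06). Whether neighbouring genes move together more often than distant ones was not tested.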
